A study of Chromochloris zofingiensis with 38 samples.

Results

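The genes described here are 189 of the 12459 genes counted in Chromochloris zofingiensis, a unicellular green alga. Their mRNA was low 1 h after addition of the TOR inhibitor AZD and, by the rule given here, within 2-fold of the S libraries at 24 h. They were chosen from AZD and S libraries alone. CPM values (counts scaled to the same total in every library) were averaged per group, and the log2 ratio of AZD over S was taken with 1 CPM added to both. The median ratio over the 11623 genes with a mean of at least 1 CPM was then subtracted, which was -0.24 at 1 h and -0.21 at 24 h. Genes with a centred ratio of -2 or below at 1 h, a 4-fold fall, numbered 368. Of these, the 189 members, or 51.4%, lay within 1 log2 unit (2-fold) of no difference at 24 h. Another 164 were still lower by at least 1 log2 unit at 24 h and 15 were higher by at least 1.

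All libraries came from wild-type cells, and the groups were AZD, the group labelled GA, glucose (Glu), the group labelled S, and None, each at 1 h and at 24 h. S and GA are not spelled out in the labels and are called by those labels here. There were 38 libraries in 10 groups, with 3 libraries for AZD at 1 h and for GA at 24 h and 4 for every other group. Sample titles carried one prefix at 1 h and another at 24 h. Time therefore cannot be told apart from prefix, and no level was tested between the times. RNA was taken from pelleted cultures, so less RNA per cell and fewer cells making a transcript cannot be told apart.

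TOR, named after its inhibitor rapamycin, is a kinase that couples growth to nutrient supply in eukaryotes. When carbon, nitrogen and energy are plentiful it promotes ribosome production and protein synthesis and restrains autophagy, and its inhibition shifts cells away from growth. In algae TOR inhibitors slow growth and alter carbon and nitrogen metabolism, and C. zofingiensis is known for switching off photosynthesis and accumulating lipid and ketocarotenoids when given glucose. The gene IDs of the table come with no names or products, and 0 IDs could be paired with a name. The members are therefore given by ID, without roles, and no pathway list was counted.

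In the median member mRNA was low in AZD and GA at 1 h, and at 24 h it was highest in Glu. Its level at 1 h was 3.63 ± 0.0696 CPM in AZD (SD, n = 3) and 3.32 ± 0.322 CPM in GA (n = 4). At the same time it was 27.0 ± 4.86 CPM in Glu, 26.0 ± 3.93 CPM in S and 28.4 ± 0.910 CPM in None (n = 4 each). The AZD and GA libraries lay far below all others at 1 h, and the values of Glu, S and None overlapped. These and all later CPM values were scaled between libraries with TMM factors, which assume that most genes do not differ between libraries. In some comparisons most genes did differ, as the shares given below show.

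At 24 h the median member stood at 17.8 ± 1.19 CPM in AZD (n = 4), 20.1 ± 1.08 CPM in GA (n = 3), 38.8 ± 2.03 CPM in Glu, 21.2 ± 1.13 CPM in S and 19.9 ± 1.25 CPM in None (n = 4 each). Glu was the high group at this time. As a share of all counts, the 189 members together held 0.107% ± 0.00201 in AZD, 0.0921% ± 0.00637 in GA, 0.743% ± 0.127 in Glu, 0.851% ± 0.172 in S and 0.943% ± 0.0386 in None at 1 h. At 24 h the shares were 0.571% ± 0.0326 in AZD, 0.567% ± 0.0482 in GA, 1.49% ± 0.0596 in Glu, 0.800% ± 0.0521 in S and 0.773% ± 0.0477 in None.

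**Figure D1:**
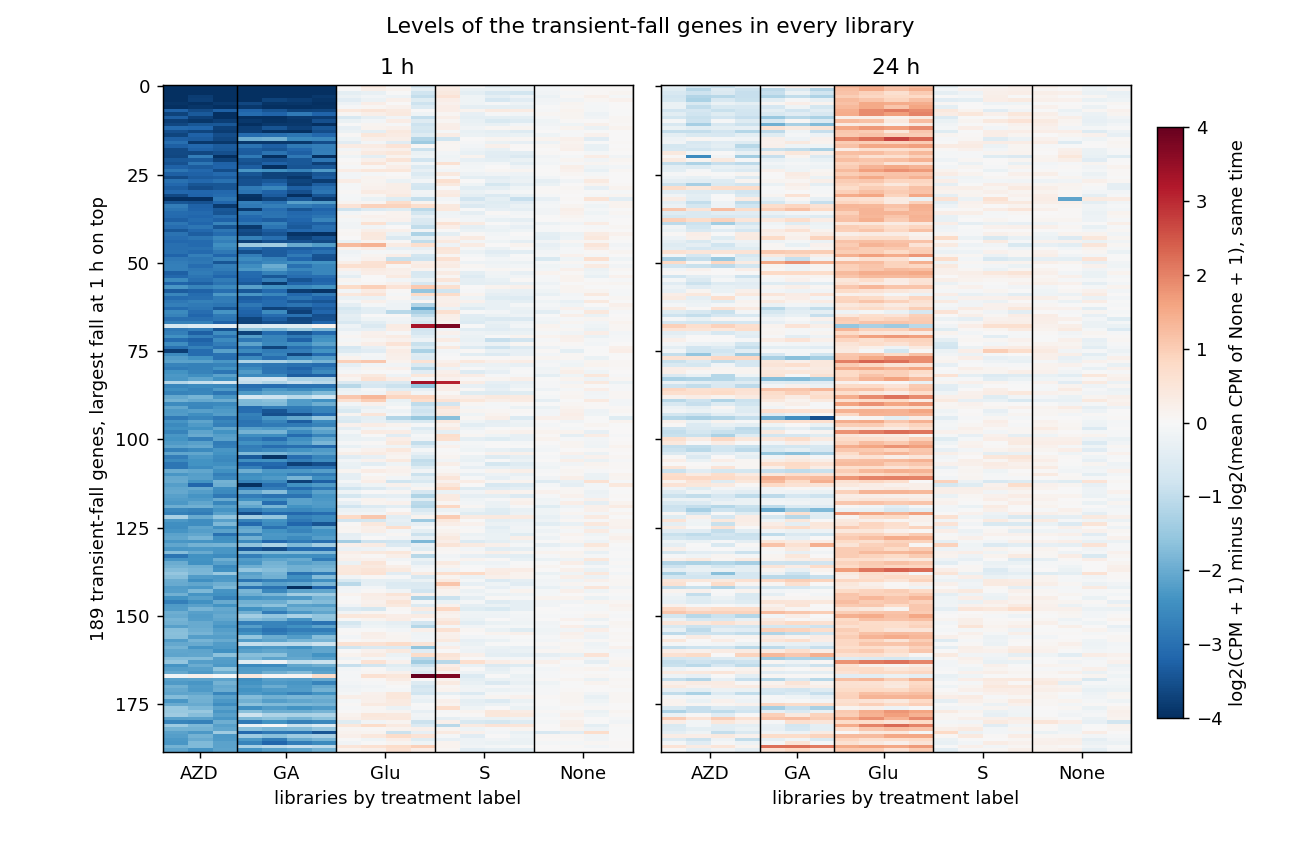
Level of each of the 189 members in each of the 38 libraries, as the log2 of CPM with 1 CPM added, less the same for the mean of the None libraries of that time. Each line across is a gene and each column a library, with AZD, GA, Glu, S and None from left to right. The AZD and GA libraries are low for nearly all members at 1 h, and the Glu libraries are high for most at 24 h.

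**Figure D2:**
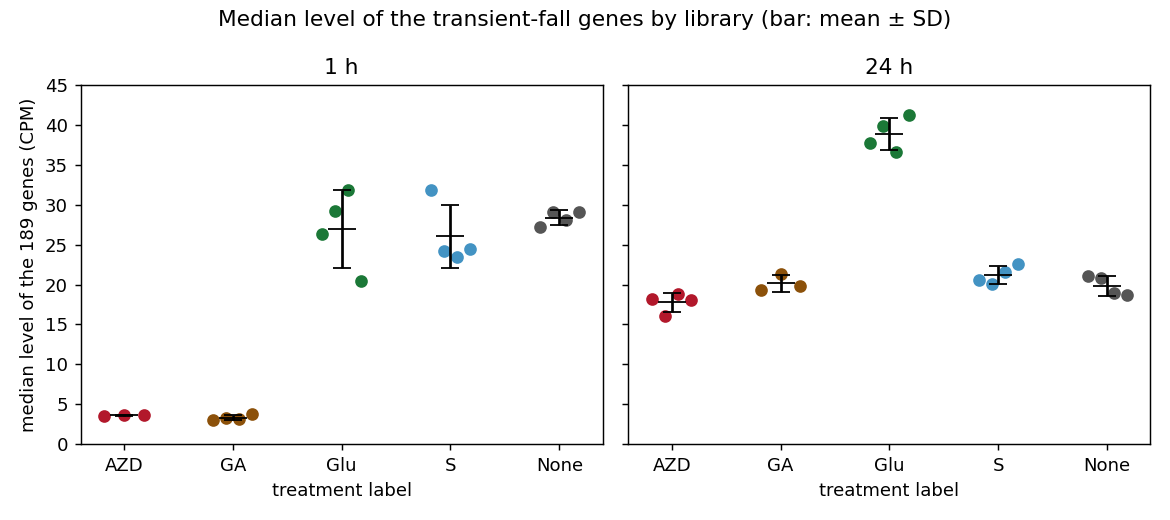
Median CPM of the 189 members in each library (points) by group and time, with the mean of the libraries and its SD. At 1 h AZD and GA average 3.63 and 3.32 CPM while Glu, S and None average 27.0, 26.0 and 28.4 CPM, and at 24 h Glu stands highest at 38.8 CPM.

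Library totals ran from 12414641 to 106150530 counts. At 1 h 2 libraries stood apart for the members, S replicate 1 and Glu replicate 4. The members held 1.11% of the counts in S replicate 1, against 0.738% to 0.790% in the other S libraries, and this library was above every other S library for 140 members. Glu replicate 4 held 0.571%, against 0.726% to 0.846% in the other Glu libraries, and lay below all of them for 140 members and above all of them for 13. Its ratio to the median of the other Glu libraries had a median of 0.72 over the members. The same counts were not made over all genes, so whether these shifts are particular to the members was not tested. S replicate 1 also entered the rule, which favours genes that are high in it.

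For 3 members both libraries were high where their groups were not, and these genes are in the set through S replicate 1. Cz09g21270 read 20.1 CPM in S replicate 1 and at most 0.635 CPM in the other S libraries at 1 h, and 36.5 CPM in Glu replicate 4 against at most 1.48 CPM in the other Glu libraries. Cz10g26150 read 85.5 CPM in S replicate 1 and at most 5.38 CPM in the others, and 62.4 CPM in Glu replicate 4 against at most 7.08 CPM. Cz06g18210 read 28.4 CPM in S replicate 1 and at most 3.26 CPM in the others, and 33.7 CPM in Glu replicate 4 against at most 1.33 CPM. Without S replicate 1 their centred ratios of AZD over S at 1 h were 0.33, -0.39 and -0.80 in that order, so none of the 3 would have been chosen. Without S replicate 1 the rule gave 164 genes, of which 156 were among the 189.

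Because the AZD and S libraries chose the members, their differences are given as a description. The centred log2 ratio of AZD over S at 1 h ran from -4.74 to -2.002 over the members with a median of -2.40, a 5.29-fold fall, and 44 members were at -3 or below. At 24 h it ran from -0.996 to 0.995 with a median of -0.30 and was below 0 for 130 members and above 0 for 59. AZD lay below every S library at 1 h for 187 of the 189, where 23.6% of all genes tested did so, which the rule itself brings about. At 24 h every AZD library still lay below every S library for 86 members and above for 17. Of the 12142 genes tested 4345 and 3797 did so. With TMM scaling the members' log2 difference of AZD from S at 24 h ran from -1.19 to 0.95, so many members remained apart from S. Just inside the limit at 1 h were Cz19g02210 at -2.002 and Cz02g17170 at -2.003, and just outside it were Cz07g24060 at -1.998 and Cz05g10160 at -1.991. At 24 h the nearest members to the lower limit were Cz08g19040 at -0.996 and Cz13g03150 at -0.994, and Cz12g23060 at -1.00006 and UNPLg00280 at -1.003 lay just outside. Near the upper limit Cz02g00090 at 0.995 and Cz01g35040 at 0.89 were inside, and Cz06g10190 at 1.03 and Cz06g24070 at 1.04 outside.

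Set against None, which did not enter the rule but is compared here with the same AZD libraries, the median log2 difference of the members was -2.80 for AZD at 1 h and -0.35 for AZD at 24 h. AZD was at or below -2 against None at 1 h for 176 members, and 2 members were above -1, which were Cz09g21270 at 0.06 and Cz10g26150 at -0.65, both among the 3 genes above. S and None differed by a median of -0.07 at 1 h and 0.03 at 24 h. The medians over all genes tested were 0.11 for AZD against None at 1 h and -0.04 at 24 h, and 0.01 for S against None at both times. The lower quartile over all genes was -0.48 for AZD against None at 1 h. The 176 largely restate the rule, which used the same AZD libraries, and no such count was made over all genes.

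Some of the deepest falls came down to low counts. Cz07g04070, the member with the lowest ratio of AZD over S at 1 h, read 0.344, 0.308 and 0.241 CPM in AZD and 45.04, 35.4, 28.2 and 32.3 CPM in S. It read 0.570, 0.319, 0.0897 and 0.399 CPM in GA at 1 h, against 37.6, 47.1, 39.0 and 23.3 CPM in Glu. GA held 33 counts of it over the 4 libraries, and it was 93.4-fold lower in GA than in Glu, with an exact 95% Poisson interval of 66.5 to 136 that covers counting error only. At 24 h it read 18.3, 22.0 and 20.3 CPM in GA and 47.2, 51.6, 41.1 and 44.7 CPM in Glu. The groups were far apart at 1 h and still separate at 24 h. With TMM scaling the 24 h level in GA was near the None mean of 18.1 CPM.

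Cz05g20110 also came down to low counts. It read 0.630, 0.925 and 0.241 CPM in AZD at 1 h, and 0.488, 0.128, 0.359 and 0.499 CPM in GA against 27.3, 29.3, 35.8 and 20.1 CPM in Glu. GA held 37 counts, and the fold was 64.0 lower in GA than in Glu (exact 95% Poisson interval 46.4 to 90.9). At 24 h the GA libraries read 9.17, 15.2 and 9.89 CPM and the Glu libraries 41.3, 35.4, 28.6 and 37.3 CPM. No GA library reached a Glu library at either time.

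Cz01g09300 was both among the deepest falls and among the most abundant members. At 1 h it read 6.62, 6.27 and 4.52 CPM in AZD and 222, 149, 149 and 151 CPM in S. The GA libraries read 3.70, 4.15, 5.38 and 4.96 CPM, and the Glu libraries 177, 212, 198 and 136 CPM. At 24 h they read 61.5, 82.3 and 56.8 CPM in GA against 300.3, 365, 294 and 344 CPM in Glu. Its log2 difference of GA from Glu was -5.31 ± 0.19 at 1 h (SE, edgeR quasi-likelihood test, adjusted p = 1.72e-21) and -2.29 ± 0.18 at 24 h (adjusted p = 3.19e-13). The other genes with the lowest ratios of AZD over S were Cz10g13160, Cz08g12220 and Cz15g08040, at 1.4995, 4.01 and 2.55 CPM in AZD and 38.8, 73.2 and 50.7 CPM in S at 1 h.

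These 3 genes differed in how far they had returned in GA at 24 h. Cz15g08040 read 3.30, 2.55, 2.60 and 2.39 CPM in GA at 1 h against 46.1, 63.8, 53.1 and 29.0 CPM in Glu. At 24 h it read 73.5, 84.4 and 77.8 CPM in GA and 159, 203, 198 and 193 CPM in Glu, with a None mean of 70.2 ± 2.17 CPM. With TMM scaling GA at 24 h thus stood near None while Glu stood well above both. Cz10g13160 read 1.18, 0.957, 1.39 and 1.80 CPM in GA at 1 h against 32.9, 36.4, 33.8 and 19.96 CPM in Glu, and at 24 h 6.83, 8.18 and 6.64 CPM in GA against 34.2, 30.7, 29.2 and 29.9 CPM in Glu. With None at 17.0 ± 1.90 CPM, GA was still the lowest for this gene beside AZD at 8.08 ± 1.17 CPM. Cz08g12220 lay between them, with 31.8, 41.3 and 34.8 CPM in GA at 24 h, 105, 93.6, 79.5 and 98.3 CPM in Glu and 42.9 ± 7.16 CPM in None.

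Whether the 1 h fall recurred in cells of another group was tested with GA against Glu, since neither entered the rule. Counts were fitted with edgeR's quasi-likelihood model over all libraries and p-values adjusted by Benjamini-Hochberg over 12142 genes, all 189 members among them. A gene was called at an adjusted p under 0.05. In GA against Glu at 1 h 188 members were lower and 0 higher, where 26.7% of all genes tested were called lower and 31.6% higher. The fall was at least 2-fold for 187 members, against 12.6% of all genes, and for 185 every GA library lay below every Glu library, against 21.6% of all genes. The members' median log2 difference was -2.93, a 7.60-fold fall, with quartiles of -3.56 and -2.31 and a range of -6.68 to -0.71. The median over all genes was 0.10. With library totals alone these medians were -3.43 for the members and -0.40 for all genes.

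The gene that was not called lower was Cz02g07010. It read 5.57, 6.96, 3.55 and 3.99 CPM in GA at 1 h and 8.41, 12.7, 9.38 and 2.50 CPM in Glu. Glu replicate 4 lay below all GA libraries, and the log2 difference was -0.71 ± 0.33 (edgeR, adjusted p = 0.0605). Of the called members, the 3 with a high Glu replicate 4 owed their call to it: without that library the log2 difference was 0.01 for Cz09g21270, -0.26 for Cz10g26150 and -0.96 for Cz06g18210 (edgeR, adjusted p = 0.992, 0.736 and 0.189 in that order).

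Across the members the log2 difference of GA from Glu at 1 h followed that of AZD from S, 2 comparisons that share no library. Pearson's r was 0.82 and Spearman's rho 0.78 over the 189 genes, and 0.81 and 0.81 over all 12142 genes. At 24 h r was 0.48 and rho 0.55 over the members, and 0.64 and 0.68 over all genes. The choice of members narrows the AZD range, and no p-value is given, since genes do not vary independently.

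**Figure D3:**
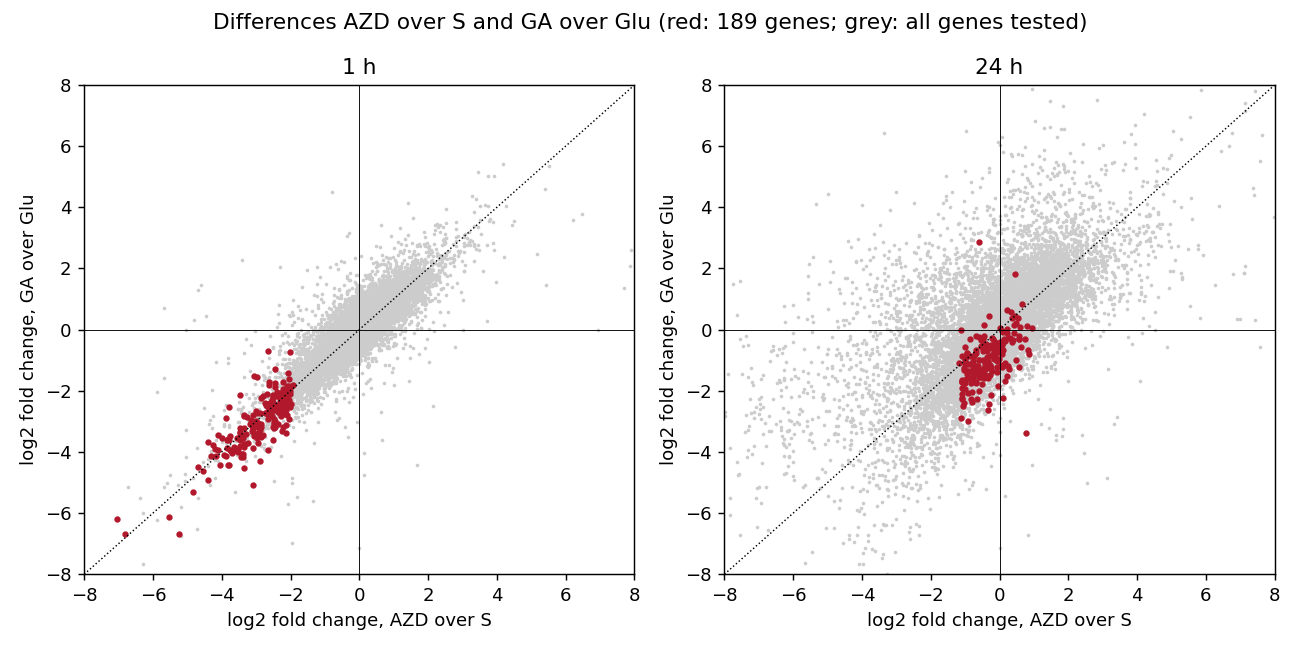
Log2 difference of GA from Glu (vertical) against that of AZD from S (horizontal) at 1 h and 24 h, with the 189 members in colour over all genes tested. Both axes are cut at 8 log2 units, beyond which 10 genes lie at 1 h and 68 at 24 h. The members sit low on both axes at 1 h, and at 24 h they spread around 0 for AZD against S and lie mostly below 0 for GA against Glu.

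The most abundant members in S at 1 h were Cz13g00120, Cz06g27010, Cz07g33040, Cz01g09300, Cz10g18210 and Cz02g24110, with means of 482, 338, 241, 168, 164 and 152 CPM in S. All 6 were called lower in GA than in Glu at 1 h. Cz13g00120 read 130.2, 124, 108 and 101 CPM in GA at 1 h against 524, 558, 502 and 357 CPM in Glu, a log2 difference of -2.07 ± 0.15 (edgeR, adjusted p = 1.33e-13). Cz02g24110 read 12.9, 10.5, 8.62 and 8.85 CPM in GA against 169, 179.7, 160.1 and 128 CPM in Glu, a log2 difference of -3.96 ± 0.17 (adjusted p = 1.7e-19). For both genes the highest GA library was far below the lowest Glu library.

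At 24 h the members were within 2-fold of S in AZD by the rule, but most were lower in GA than in Glu. Against None at 24 h, compared below, their median log2 difference was 0.97 in Glu and 0.01 in GA. With library totals alone these medians were 0.73 and -0.35. Of the 189, 144 were called lower, 3 higher and 42 were not called, where 35.6% of all genes tested were called lower and 40.8% higher. The median log2 difference of GA from Glu was -0.99, a level 1.99-fold lower in GA, within a range of -3.38 to 2.86. The median over all genes was 0.11. A level at least 2-fold lower in GA than in Glu was called for 92 members, against 22.8% of all genes.

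The lowest of them at 24 h was Cz12g27130, which in AZD was above S at that time. It read 3.84, 2.73 and 3.68 CPM in GA at 24 h against 25.6, 33.1, 41.9 and 42.4 CPM in Glu. It was 10.4-fold lower in GA, with a log2 difference of -3.38 ± 0.25 (edgeR, adjusted p = 7.04e-14). AZD read 17.0, 15.95, 20.3 and 20.4 CPM at 24 h, S 11.7, 13.4, 8.54 and 9.27 CPM, and None averaged 10.98 ± 2.18 CPM. GA was therefore the lowest of all groups for this gene at 24 h and Glu the highest.

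Cz06g27010 read 175, 169 and 205 CPM in GA at 24 h against 1161, 1462, 1738 and 1399 CPM in Glu. It was 7.86-fold lower in GA than in Glu, a log2 difference of -2.98 ± 0.17 (edgeR, adjusted p = 1.17e-16), while None averaged 570.4 ± 69.4 CPM. Cz13g00120 was lower in GA by 2.64 ± 0.18 on the log2 scale (adjusted p = 3.69e-15), with means of 154 CPM in GA and 957 CPM in Glu. Cz08g19040 was lower in GA by 2.90 ± 0.41 (adjusted p = 1.44e-07), with 4.58, 2.94 and 0.963 CPM in GA and 20.4, 22.2, 15.8 and 25.8 CPM in Glu. In all 3 genes GA was also below the None mean at 24 h.

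The 3 members called higher in GA than in Glu at 24 h did not move alike. Cz02g17170 read 268, 267 and 245 CPM in GA against 166, 178, 169 and 188 CPM in Glu, a log2 difference of 0.57 ± 0.11 (edgeR, adjusted p = 3.38e-05), and both groups were above the None mean of 57.2 CPM. Cz19g09140 read 75.6, 64.1 and 80.9 CPM in GA and 45.8, 46.9, 41.2 and 31.6 CPM in Glu, a difference of 0.83 ± 0.25 (adjusted p = 0.00394). Cz10g26150, whose choice rests on 1 library, read 17.3, 23.2 and 18.7 CPM in GA and 4.74, 5.86, 5.05 and 6.92 CPM in Glu, a difference of 1.81 ± 0.73 (adjusted p = 0.0248).

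The difference of GA from Glu was smaller in size at 24 h than at 1 h for most members. The contrast of the 2 differences, 24 h less 1 h, was called positive for 170 members, where 36.1% of all genes tested were, and negative for 5, where 29.7% were. Without Glu replicate 4 at 1 h it was positive for 169 and negative for 3. Its median was 2.24 log2 units over the members and 0.14 over all genes. For Cz07g04070 the contrast was 5.49 ± 0.33 (edgeR, adjusted p = 1.4e-15) and for Cz05g20110 4.50 ± 0.41 (adjusted p = 3.14e-11). The times also differ in title prefix.

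The 5 members whose difference was more negative at 24 h, named after their values were seen, were Cz02g07010, Cz03g10020, Cz06g27010, Cz08g19040 and Cz13g00120. Cz03g10020 read 65.9, 81.3, 43.5 and 55.8 CPM in GA at 1 h against 113, 136, 105 and 55.8 CPM in Glu, groups that overlapped. At 24 h it read 129, 94.4 and 122 CPM in GA and 442, 629, 772 and 630.3 CPM in Glu, and the contrast was -1.69 ± 0.38 (edgeR, adjusted p = 0.000248). For Cz06g27010 the 1 h libraries read 169, 179, 128 and 126 CPM in GA and 333, 456, 376 and 292 CPM in Glu, and its contrast was -1.70 ± 0.21 (adjusted p = 2.42e-08). Cz02g07010 reached 33.2, 27.0 and 31.9 CPM in GA at 24 h against 111, 135, 142 and 123 CPM in Glu, with a contrast of -1.34 ± 0.46 (adjusted p = 0.0117). In these genes Glu was well above None at 24 h, except for Cz08g19040, with 21.0 ± 4.15 CPM in Glu and 20.8 ± 0.946 CPM in None.

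**Figure D4:**
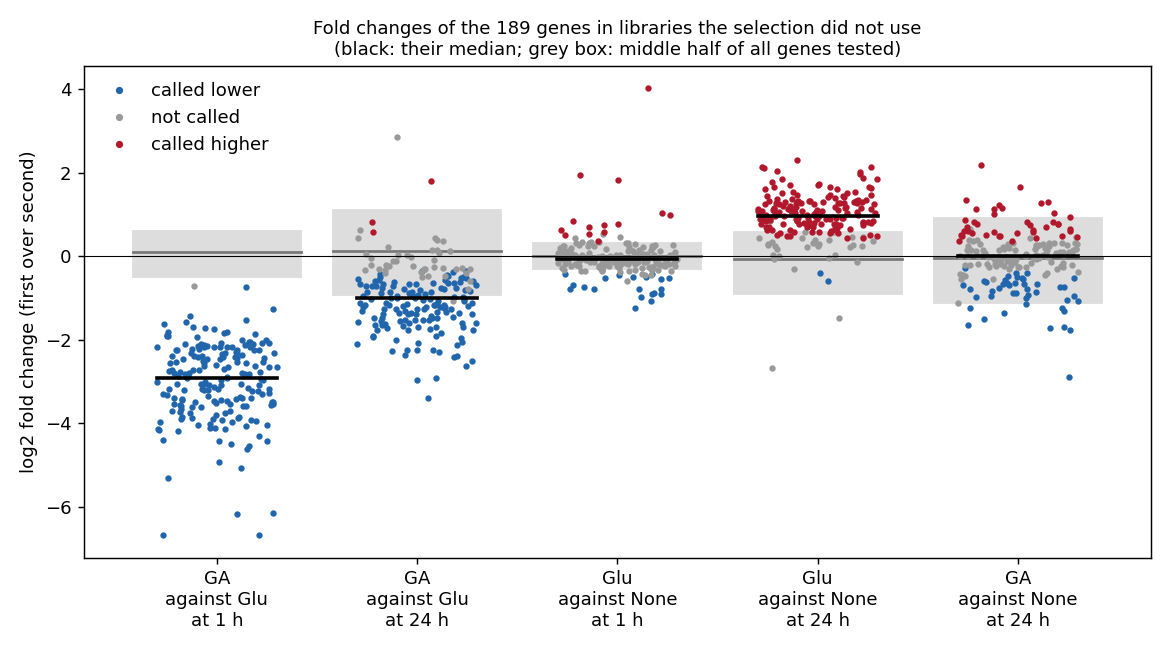
Log2 fold changes of the 189 members in the comparisons that the rule did not use, each point a gene, with the median over members and the median over all genes tested. GA against Glu is centred at -2.93 at 1 h and -0.99 at 24 h, and Glu against None at -0.07 at 1 h and 0.97 at 24 h.

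Few members were called after 1 h of glucose. In Glu against None 20 members were lower, 14 higher and 155 not called, where 13.6% of all genes tested were lower and 17.5% higher, and the median log2 difference was -0.07. The split moved with the scaling: with library totals alone, which moved the median of all genes to -0.45, 102 members were called lower and 4 higher. Without Glu replicate 4, 12 members were called lower. Changes of at least 2-fold were called for 2 lower and 4 higher members, against 2.5% and 4.75% of all genes. Of these 4, 3 were Cz09g21270, Cz10g26150 and Cz06g18210, whose log2 differences without Glu replicate 4 were 0.80, -0.14 and -0.90 in that order (edgeR, adjusted p = 0.550, 0.895 and 0.283).

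Among the called genes with separate libraries, Cz08g07170 was the lowest at 1 h, with 7.01, 10.5, 10.9 and 4.93 CPM in Glu and 19.1, 21.1, 16.6 and 21.1 CPM in None. Its log2 difference was -1.24 ± 0.19 (edgeR, adjusted p = 5.74e-06), followed by Cz16g18190 at -1.08 and Cz07g28060 at -0.97. Cz10g26060 was the highest, with 199.5, 237, 173 and 170.4 CPM in Glu and 89.7, 101, 87.1 and 99.5 CPM in None, a log2 difference of 1.05 ± 0.15 (adjusted p = 1.17e-06). Cz06g31290 at 0.86 and Cz19g03110 at 0.78 came next. All 6 of these genes were lower in GA than in Glu at 1 h.

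After 24 h of glucose most members were higher than in None. In Glu against None at 24 h 155 members were called higher, 2 lower and 32 were not called, where 32.8% of all genes tested were higher and 36.0% lower. At least a 2-fold rise was called for 90 members, against 13.4% of all genes, and the median log2 difference was 0.97, a 1.96-fold rise, against -0.06 over all genes. These tests share the Glu libraries with GA against Glu, so the values of the 2 comparisons are not independent. With library totals alone, which moved the median of all genes to -0.29, 126 members were called higher and 3 lower.

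Cz15g13060 rose the most at 24 h. It read 280.4, 341, 478 and 349 CPM in Glu and 82.4, 68.2, 64.6 and 75.02 CPM in None, a 4.99-fold rise with a log2 difference of 2.32 ± 0.24 (edgeR, adjusted p = 1.64e-10). In GA it read 84.5, 62.9 and 81.4 CPM, which overlapped None. Cz07g33040 read 368, 513, 587 and 537 CPM in Glu and 115, 94.1, 115 and 134 CPM in None, a 4.38-fold rise with a log2 difference of 2.13 ± 0.18 (adjusted p = 1.08e-12). In GA it read 124, 93.2 and 127 CPM, which also overlapped None.

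The members called lower in Glu than in None at 24 h were Cz03g24020 and Cz10g05190. Cz03g24020 read 47.9, 45.4, 41.9 and 48.0 CPM in Glu and 67.3, 71.3, 63.7 and 71.7 CPM in None, a log2 difference of -0.58 ± 0.15 (edgeR, adjusted p = 0.000944). Cz10g05190 read 54.0, 52.9, 41.5 and 47.9 CPM in Glu and 63.7, 75.03, 59.9 and 62.1 CPM in None, a difference of -0.41 ± 0.14 (adjusted p = 0.0102). Without None replicate 1, 2 or 4, 1 member was called lower. Both were lower still in GA at 24 h, at 26.9 ± 1.90 and 19.7 ± 4.74 CPM (n = 3).

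**Figure D5:**
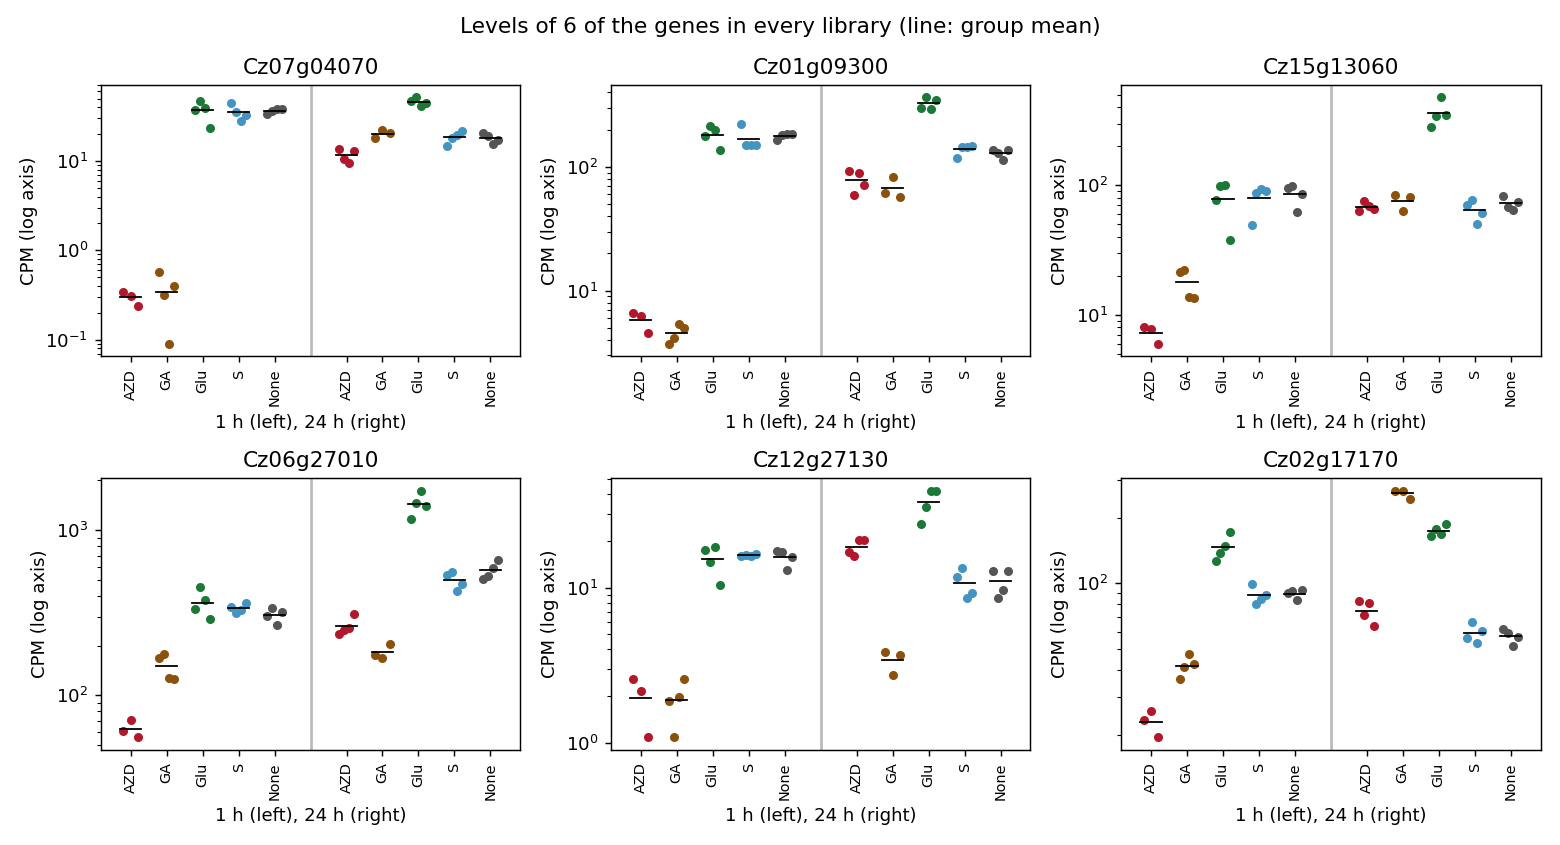
CPM of 6 members in every library, with 1 h on the left and 24 h on the right of each panel and groups in the order AZD, GA, Glu, S and None. Cz07g04070 and Cz01g09300 are far lower in AZD and GA than in Glu, S and None at 1 h. Cz15g13060, Cz06g27010 and Cz12g27130 are highest in Glu at 24 h, and Cz02g17170 is highest in GA at 24 h.

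A comparison of GA with None at 24 h was added after the data were seen. In it 45 members were lower, 41 higher and 103 not called, where 39.2% of all genes tested were lower and 36.5% higher, and the median log2 difference was 0.01. Under library totals alone, which put the median of all genes at -0.40, the counts were 74 lower and 16 higher and the median -0.35, so the balance of directions depends on the scaling. The largest rise among the genes named here was that of Cz02g17170, at 2.19 ± 0.12 (edgeR, adjusted p = 4.87e-18).

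Set beside the members, the 164 early falls that stayed lower in AZD than in S at 24 h had a like fall at 1 h in GA against Glu, with 163 called lower and a median of -2.95. At 24 h the 164 had 162 called lower and 0 higher, with a median of -2.55, where the 189 had 144 and 3 and a median of -0.99. The contrast of 24 h less 1 h was called positive for 68 of the 164 and negative for 48, with a median of 0.16, beside 170 and 5 of the 189. These are 41.5% and 29.3% of the 164, near the 36.1% and 29.7% of all genes tested. For the other comparisons the shares of all genes called are those given above. In Glu against None at 24 h 138 of the 164 were higher and 4 lower with a median of 1.08, close in value to the 155, 2 and 0.97 of the members. In GA against None at 24 h 156 of the 164 were lower, with a median of -1.56, beside 45 of the 189. Of the 15 early falls that were higher in AZD than in S at 24 h, 1 was lower and 7 were higher in GA against Glu at 24 h, with a median of 0.30. The difference between these sets was not tested.

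The members' IDs carried all 20 prefixes found in the table, and the share of each prefix's genes in the set ran from 0.551% for Cz14 to 2.21% for Cz13. There were 6 pairs of members on neighbouring lines of the table, such as Cz05g20110 with Cz05g20130. How many pairs a random set of this size would hold was not tested. What the prefixes stand for is not given in the sources used here.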

How the data were processed

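Poly(A) RNA from frozen cell pellets was sequenced as read pairs and trimmed with BBDUK, per the labels' protocols. Salmon and DESeq2 1.46.0 appear in the submitters' processing notes, with no step assigned to either. Genome build, annotation and strand setting were not given in the sources used here. Estimated counts for each gene were deposited by the authors, most of them not whole, without depth scaling. Reads shared by similar or overlapping genes may have been split among several IDs. The table held 0 columns of other samples.

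Estimated counts were rounded and tested with edgeR 4.0.16 in R 4.3.3. filterByExpr (minimum count 10, minimum total 15) kept 12142 genes, TMM factors scaled the libraries, and all 38 libraries entered 1 quasi-likelihood model of group means (28 residual and 5.36 prior degrees of freedom, common biological variation 0.20). The model was run on simulated data for GA against Glu at 1 h alone. That simulation used the same spread for every gene and only lowered genes in GA. It therefore does not test the scaling where many genes differ in both directions. SEs were approximated from the fold change and its F statistic. CPM are edgeR's, on TMM-scaled libraries. The rule for the members alone used CPM by library total. Poisson intervals cover counting error only, and sequenced fragments are not independent molecules. The labels do not state whether replicates were separate cultures. The p-values thus reflect the variation among these samples, and part of that may be technical.

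Members and comparisons were chosen with earlier results of these data known. Genes named were the 6 members with the lowest ratio of AZD over S at 1 h, the 6 most abundant in S at 1 h, up to 4 in each direction in GA against Glu at 24 h and up to 3 (1 h) or 2 (24 h) in each direction in Glu against None, all called and with libraries that do not overlap. The 3 with the least negative GA against Glu at 1 h and the 2 on each side of each limit were also named. The 3 genes resting on single libraries were named after their values were seen. Alternatives were DESeq2 size factors, library totals, no filter, DESeq2 1.42.0, a replicate block, only the groups compared, each replicate left out, and other settings of the rule.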

Additional observations from a re-analysis of the deposited data

Results flagged for a closer look

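In 96 groups of 4 libraries, taken over the members' share of counts, the deepest falls and the most abundant members, 6 had a library outside Dixon's 95% limit of 0.829, where chance gives about 1 in 20. The members' share of counts was 1.107% in S replicate 1 at 1 h. Cz01g09300 stood at 163.8 CPM in None replicate 1 and 222 CPM in S replicate 1 at 1 h, and at 118.3 CPM in S replicate 1 at 24 h. Cz10g18210 stood at 218.2 CPM in None replicate 3 at 1 h, and Cz15g08040 at 73.41 CPM in None replicate 4 at 24 h.

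The difference of GA from Glu changed between 1 h and 24 h, by an edgeR contrast, toward the positive for 170 members and toward the negative for 5. For the deepest falls the 24 h difference less the 1 h difference was 5.49 log2 units for Cz07g04070, 4.50 for Cz05g20110, 3.02 for Cz01g09300, 2.88 for Cz15g08040, 2.50 for Cz08g12220 and 2.39 for Cz10g13160. A contribution of the title prefix, which changes with the time, cannot be told apart.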

How the results depend on the processing

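The choice of members depended on its settings. A required fall of 3 log2 units left 44 genes and a 24 h limit of 0.5 left 109. With None in place of S the rule gave 216 genes (170 shared with the 189), with TMM scaling 194 (185), without centring 238 (157), with 0.5 CPM added 227 (181) and with 2 CPM added 136 (128). Leaving out each replicate gave 164 to 200 genes. No gene named by rule changed direction in the comparison that named it. Over these comparisons, and the contrast for the deepest falls, 556 alternative results kept the call, 12 lost it and 7 gained one. Of the 3 genes resting on single libraries, Cz09g21270 moved to 0.01 in GA against Glu at 1 h, and Cz10g26150 and Cz06g18210 to -0.14 and -0.90 in Glu against None at 1 h, without Glu replicate 4.

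In GA against Glu, leaving out each replicate gave 186 to 189 members called lower at 1 h, 133 to 141 lower and 2 to 4 higher at 24 h, and 164 to 171 positive and 3 to 5 negative for 24 h less 1 h, with 3 without Glu replicate 4 at 1 h. Fitting only the groups compared gave 162 lower and 6 higher at 24 h, and library totals 2 negative for the contrast. In Glu against None at 1 h library totals gave 102 lower and 4 higher, and leaving out replicates 12 to 20 lower and 10 to 15 higher. At 24 h 1 member was lower with DESeq2 size factors and 1 without the filter, and 1 to 2 without a replicate (1 without None replicate 1, 2 or 4). There were 4 lower without S replicate 1 and Glu replicate 4 of 1 h, a setting chosen after seeing the data. Leaving out replicates gave 150 to 160 higher at 24 h, and library totals 126 higher and 3 lower. In GA against None at 24 h library totals gave 74 lower and 16 higher, and leaving out replicates 36 to 45 lower and 35 to 47 higher. Beyond the scaling shifts stated with them, the cause of these moves was not tested.

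Replicate numbers are shared between groups. Same-numbered libraries correlated at -0.33 to 0.21, and 2 of 18 correlated best with their own number. No pairing by number was thus seen, which does not exclude one. With a replicate block 187 members were lower in GA against Glu at 1 h, 139 lower and 3 higher at 24 h, and 167 positive and 5 negative for the contrast. Glu against None gave 16 lower and 10 higher at 1 h and 152 higher and 3 lower at 24 h, and GA against None 42 lower and 37 higher. Depth limits the genes with the fewest counts. Counting intervals were given for Cz07g04070 and Cz05g20110 only, and other members with few counts carry none.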
